A study of Mus musculus with 24 samples.

Results

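The 10 genes followed here are C1qa, C1qb, C1qc, Aif1, Cx3cr1, Csf1r, Tyrobp, Trem2, P2ry12 and Itgam, which are commonly used to mark microglia, the resident macrophages of the brain. They were taken by name from the 32728 genes of the deposited tables, and all 10 were found. RNA sequencing covered cultured mouse cells labelled neurons or astrocytes, in 8 groups of 3 libraries (24 in all) with totals of 16 to 25.9 M counts. All cultures came from mice with loxP-flanked Perk (Eif2ak3), whose product is a kinase of the ER membrane that lowers translation during ER stress. Cultures called Perk KO had been transduced with a lentivirus carrying active Cre recombinase, and those called WT with one carrying an inactive Cre, so that WT cells also carry the floxed gene and a lentivirus. At day 14 in vitro the cultures received 5 µg/mL tunicamycin (TM), which blocks N-linked glycosylation and so causes ER stress, or the same volume of DMSO (control), for 24 hours. The series' design text gives 20 to 24 hours. Eif2ak3 itself was lower in Perk KO, with 24.9 to 39.1 CPM in WT and 5.22 to 7.61 CPM in Perk KO control libraries, and 73.2 to 141 CPM against 9.51 to 15.98 CPM with TM. The labels say neither which cells the lentivirus entered nor whether the 3 biological replicates of a group were separate animals, so p-values measure only how libraries of a group vary, and that variation may be technical.

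Microglia arise from yolk sac progenitors and not from the neural lineage that gives neurons and astrocytes, and they depend on the receptor CSF1R and on the transcription factor PU.1 (Spi1). They are the main source of C1q in the brain, the recognition molecule that starts the classical complement pathway and that can tag synapses for removal. TYROBP (DAP12) is the adaptor through which receptors such as TREM2 signal, and CX3CR1, P2RY12 and ITGAM (CD11b) are surface proteins by which microglia sense the neuronal ligand CX3CL1, nucleotides, and complement fragments or matrix. In bulk RNA of a culture, fewer cells of a type and less RNA per cell cannot be told apart, and this holds for every value below.

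In the deposited GRCm38 coordinates, the C1q chain genes are neighbours on the minus strand of chromosome 4, with C1qb (ENSMUSG00000036905) at chr4:136880129-136886187, C1qc (ENSMUSG00000036896) at chr4:136889804-136893065 and C1qa (ENSMUSG00000036887) at chr4:136895917-136898803. Aif1 (ENSMUSG00000024397) is at chr17:35170991-35176068 (minus strand) and Cx3cr1 (ENSMUSG00000052336) at chr9:119901616-120069879 (minus). Tyrobp (ENSMUSG00000030579) is at chr7:30413760-30417585 (plus), Trem2 (ENSMUSG00000023992) at chr17:48346401-48354147 (plus), P2ry12 (ENSMUSG00000036353) at chr3:59216272-59262871 (minus) and Itgam (ENSMUSG00000030786) at chr7:128062640-128118491 (plus). In GENCODE M21, 3450 of the 5024 exonic bases of Itgam also belong to Gm49368 on the same strand, so that the counts of Itgam are uncertain. Whether reads over the shared bases were also counted for Gm49368 is not given in the sources used here. Csf1r shares 873 exonic bases with Hmgxb3 on the other strand, Cx3cr1 shares 78 with Gm33858 on the other strand, and P2ry12 lies inside Med12l, with 9 exonic bases in common. Strand is not recorded by this kind of library, and reads in such overlaps cannot be told apart. The deposited length of Csf1r is 4885 bases, against 5774 exonic bases in GENCODE M21, and its deposited coordinates differ from that release. Whether its counts cover the overlap with Hmgxb3 is therefore not known.

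The promoters of C1qb, C1qc and Cx3cr1 are shown because these genes carry much of the TM response described below. Each is the stretch of 250 bases before the RefSeq start (GRCm38.p6), minus strand, 5′ to 3′, at chr4:136886201-136886450, chr4:136892915-136893164 and chr9:120068297-120068546. By the deposited coordinates the Cx3cr1 window lies wholly inside the gene, and part of the C1qc window lies inside C1qc. Windows at other starts were not searched. Capitals mark GAGGAA, the core of PU.1 sites, or its reverse complement TTCCTC.
C1qb: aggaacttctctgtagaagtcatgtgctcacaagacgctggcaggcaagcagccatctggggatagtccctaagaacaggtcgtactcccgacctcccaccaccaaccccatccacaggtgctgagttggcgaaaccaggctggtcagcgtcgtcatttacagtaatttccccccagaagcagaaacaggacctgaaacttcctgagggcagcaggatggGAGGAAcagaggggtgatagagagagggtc
C1qc: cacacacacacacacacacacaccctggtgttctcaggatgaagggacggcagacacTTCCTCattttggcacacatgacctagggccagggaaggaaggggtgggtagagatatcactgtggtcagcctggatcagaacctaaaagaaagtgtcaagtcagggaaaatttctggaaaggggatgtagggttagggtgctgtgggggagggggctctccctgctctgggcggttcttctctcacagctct
Cx3cr1: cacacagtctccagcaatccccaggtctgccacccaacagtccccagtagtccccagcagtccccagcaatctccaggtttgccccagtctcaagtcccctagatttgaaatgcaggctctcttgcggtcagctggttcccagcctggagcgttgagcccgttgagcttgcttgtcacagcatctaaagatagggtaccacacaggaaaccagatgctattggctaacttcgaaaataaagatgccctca
C1qb and C1qc each hold 1 match and Cx3cr1 holds 0. Of the 10 genes, 7 were in the RefSeq promoter table, and 5 of these (C1qb, C1qc, Aif1, Trem2 and Itgam) held GAGGAA on either strand, while Cx3cr1 and P2ry12 did not. Over all 32536 promoters of the same length, 23.4% held it. The composite element of an ETS core and an IRF motif was in 0 of the 7 and in 2.31% of all promoters, and the AP-1 motif TGANTCA was in Trem2 alone of the 7 and in 6.73% of all. Such matches are letters in a window and say nothing of binding.

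Each level is in CPM, that is, counts scaled to each library's total after TMM normalisation over all 24 libraries, so that libraries can be set side by side. Summed over the 10 genes, the level was 36.3 ± 11.2 CPM (SD, n = 3) in WT neurons without TM, and for Perk KO it was 70.4 ± 15.7 CPM. In astrocytes without TM the sum was 76.2 ± 69.2 CPM for WT and 57.9 ± 62.0 CPM for Perk KO. With TM the sum was 8.69 ± 2.88 CPM in WT neurons, 36.6 ± 11.5 CPM in Perk KO neurons, 13.2 ± 15.3 CPM in WT astrocytes and 15.8 ± 8.39 CPM in Perk KO astrocytes. The C1q chains made up 59.8 to 82.9% of the members' counts in a library. The labelled cell types were checked with 12 markers each. Neuron markers summed to 7040 CPM in WT neurons without TM and 305 CPM in the matching astrocytes. Astrocyte markers summed to 3579 CPM and 3181 CPM in the same groups, so cultures labelled neurons also held astrocyte RNA.

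**Figure D1:**
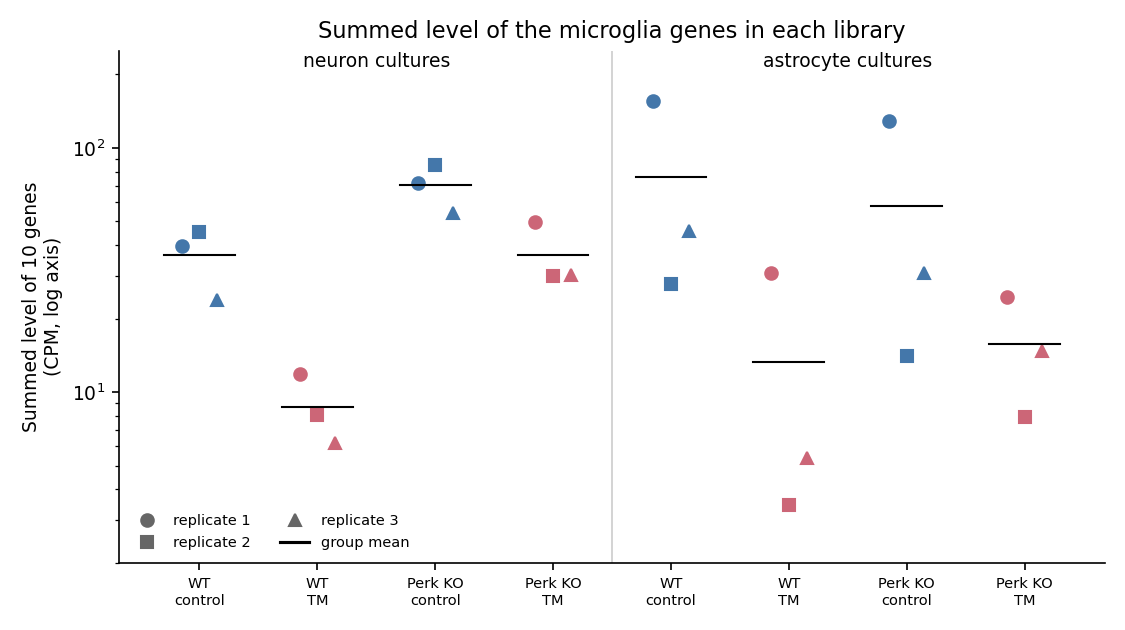
Summed level of the 10 genes in CPM (log axis) in each library, by cell type, genotype and treatment, with the marker shape giving the replicate number and the bar the mean of 3 libraries. Every TM library of WT neurons (6.19 to 11.8 CPM) lies below every control library (23.8 to 45.4 CPM), and in 3 of the 4 astrocyte groups the replicate 1 library lies far above the other two.

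The astrocyte libraries with replicate number 1 had the highest summed level in every group, far above the others in 3 of the 4. In Perk KO TM astrocytes some genes were close to replicate 3, such as C1qb at 3.91 against 3.83 CPM. In control WT astrocytes the sum was 155 CPM in replicate 1 against 27.6 and 45.6 CPM in replicates 2 and 3, and in control Perk KO astrocytes it was 129 CPM against 14.0 and 30.8 CPM. With TM it was 30.9 CPM against 3.44 and 5.35 CPM (WT) and 24.6 CPM against 7.90 and 14.8 CPM (Perk KO). The median over members of the ratio of replicate 1 to the mean of the other two was 4.34 (WT control), 6.92 (WT TM), 5.86 (Perk KO control) and 2.33 (Perk KO TM). For a list of 20 general macrophage genes, among them the PU.1 gene Spi1 and the leukocyte antigen gene Ptprc, these medians were 2.71, 5.58, 5.44 and 2.17, and for the astrocyte markers they were 1.24, 1.04, 1.20 and 1.11. Only genes averaging at least 10 counts in the group entered. In the same order these were 9, 6, 9 and 7 members, 19, 17, 19 and 14 macrophage genes, and 11, 10, 11 and 11 astrocyte markers. Same-numbered astrocyte libraries deviated together from their group means over all genes, with correlations of 0.26 to 0.60, so astrocyte comparisons are also given with the replicate number as a block.

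Between genes, levels were compared per kilobase of gene length. In control WT neurons C1qa was highest (11.2 ± 5.57 CPM per kb), followed by C1qb (7.39 ± 1.92), C1qc (4.63 ± 1.67) and Tyrobp (3.22 ± 0.341), and the ranges of neighbours in this order overlapped. Aif1, which encodes the actin-binding protein IBA1, stood at 0.624 ± 0.177 CPM per kb and Csf1r at 0.547 ± 0.198, each below every library of Tyrobp and overlapping each other. Cx3cr1 (0.249 ± 0.101), P2ry12 (0.121 ± 0.100), Itgam (0.0504 ± 0.0325) and Trem2 (0.0405 ± 0.0491) closed the order, with overlapping ranges. Control WT astrocytes gave nearly the same order, from C1qa (25.6 ± 23.7 CPM per kb) to Trem2 (0.0673 ± 0.0330), except that Cx3cr1 stood above Csf1r and Itgam above P2ry12, by less than the spread between libraries.

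The label was checked against other markers. Among 10 further genes of resting microglia, Tmem119 was at 0.0528 to 1.92 CPM in neuron libraries and 0.0604 to 1.34 CPM in astrocyte libraries. Siglech had 0 counts in all 12 neuron libraries and in 10 of the 12 astrocyte libraries, and P2ry13, a related purine receptor, had 0 counts in 5 and 7 of the 12. Sall1 is also expressed in neural cells and stood at 12.3 CPM or more in every library. The members' levels came with those of general macrophage genes such as Lyz2 (lysozyme), at 9.90 to 281 CPM in astrocyte and 15.0 to 128 CPM in neuron libraries. The 10 genes of macrophages at the brain's borders were mixed. Stab1 reached 14.3 CPM in neurons and 13.97 CPM in astrocytes, Ms4a7 6.28 and 13.3 CPM, F13a1 1.28 and 5.23 CPM, Mrc1 2.95 and 0.850 CPM and Cbr2 0.200 and 1.06 CPM. Cd209f had 0 counts in all 12 neuron and 11 of 12 astrocyte libraries, and Cd163 and Folr2 stayed at or under 0.372 and 0.314 CPM. Pf4 had 0 counts in 9 of 12 neuron libraries but reached 1.34 CPM in astrocytes. Lyve1 had 0 counts in 9 of 12 astrocyte libraries but was found in all 12 neuron libraries, at up to 2.14 CPM. Of 9 markers of other leukocytes none reached the count minimum of the tests, and their summed level was at most 1.70 CPM. The members thus came with other macrophage genes, while some defining markers of both resting microglia (Siglech, P2ry13) and border macrophages (Cd209f, Cd163, Folr2) were at or near 0.

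TM against control in WT neurons gave the members' response to ER stress with intact Perk. Here 5 of the 7 members that reached the minimum mean count of 10 fell, and 0 rose. C1qb, the B chain of C1q, was at 7.42, 10.4 and 6.34 CPM in the controls and 1.32, 0.825 and 0.914 CPM with TM. All TM libraries were far below all controls, and the log2 change was -2.83 ± 0.28 (standard error; edgeR's quasi-likelihood test, adjusted p = 6.18e-05). C1qc went from 11.7, 9.68 and 5.41 CPM to 2.27, 1.65 and 1.27 CPM (log2 change -2.22 ± 0.33, adjusted p = 0.000625), again without overlap. C1qa went from 13.03, 16.7 and 5.34 CPM to 4.44, 2.48 and 1.52 CPM (-1.91 ± 0.46, adjusted p = 0.00816).

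Of the receptors, Cx3cr1 went from 0.854, 1.65 and 0.868 CPM to 0.106, 0.310 and 0.102 CPM in WT neurons (-2.52 ± 0.55, adjusted p = 0.00488). That is 2 to 6 counts per TM library, so Cx3cr1 reached the count minimum only through the controls. Csf1r (ENSMUSG00000024621, at chr18:61105572-61132149 on the plus strand), the receptor on which microglial survival depends, went from 2.62, 3.67 and 1.74 CPM to 0.581, 0.774 and 0.711 CPM (-1.81 ± 0.35, adjusted p = 0.0025). The adaptor gene Tyrobp overlapped between groups, with 2.40, 1.97 and 2.07 CPM in controls and 2.01, 1.29 and 0.660 CPM with TM (-0.56 ± 0.38, adjusted p = 0.248). Aif1 stood at 0.801, 0.798 and 1.27 CPM against 0.951, 0.516 and 0.761 CPM (-0.20 ± 0.38, adjusted p = 0.692). Trem2, P2ry12 and Itgam had at most 9 counts per library in these 6 libraries and were not tested. The members' median log2 change was -1.91, beside 0.04 over all genes tested. Markers of other cell types fell in the same comparison, with 10 of 11 astrocyte markers lower (median -1.65), 9 of 10 oligodendrocyte lineage markers lower and 1 higher (-1.78), 10 of 12 neuron markers lower (-0.89) and 6 of 11 fibroblast and mural markers lower (-1.07), and their part in the members' fall was not tested. TM changed much of the transcriptome, with 51.8% of 15546 genes called, 4203 up and 3852 down, so a call alone does not set the members apart. The call of Csf1r ended in a fit of all 24 libraries together (adjusted p = 0.0527), and without control replicate 2 Cx3cr1 fell under the count minimum, which left 4 calls.

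**Figure D2:**
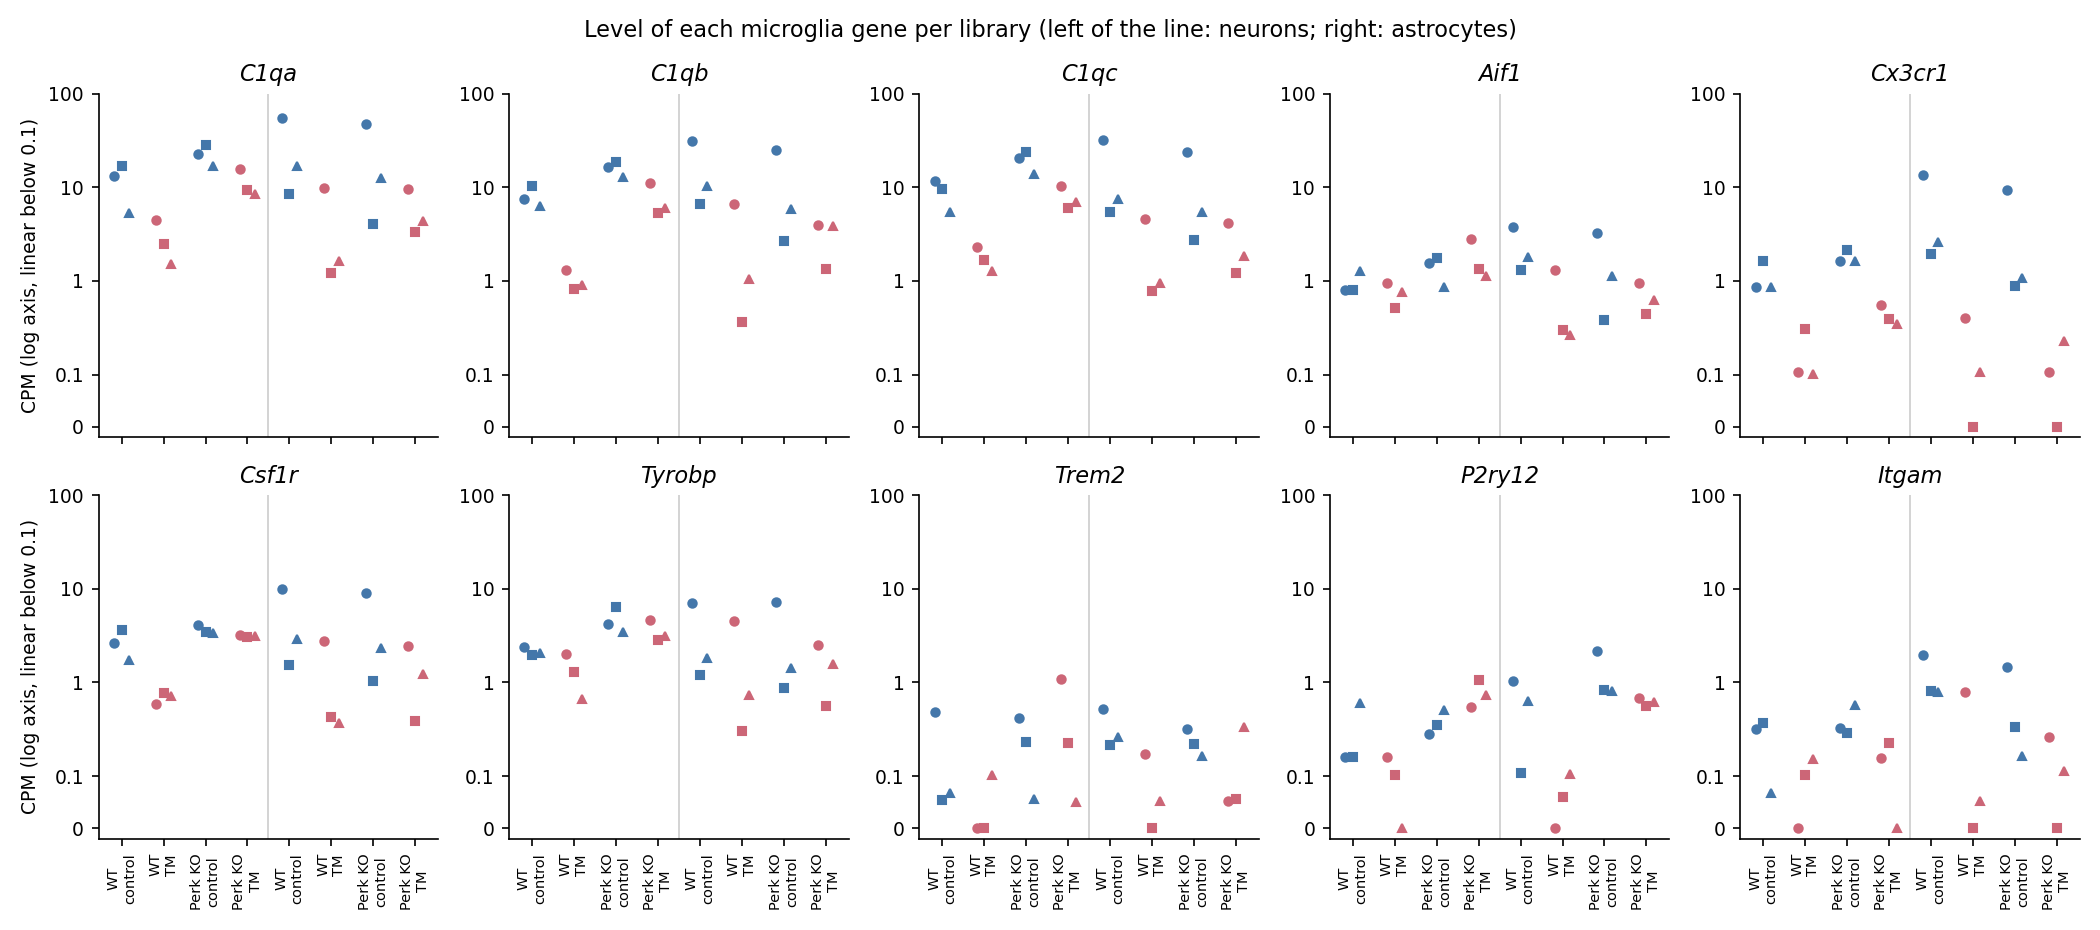
Level of each gene in CPM in each of the 24 libraries (log axis, linear below 0.1), with blue for control, red for TM and the marker shape giving the replicate number as in the plot of summed levels. The C1q chains and Cx3cr1 drop with TM in WT neurons, while Aif1 and Tyrobp overlap between treatments there.

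In Perk KO neurons, 4 of 8 tested members fell with TM and 0 rose, where 23.8% of all genes tested were called. C1qc went from 20.7, 24.0 and 13.9 CPM to 10.2, 5.98 and 6.95 CPM (log2 change -1.28 ± 0.26, adjusted p = 0.0113). C1qb went from 16.3, 18.7 and 12.8 CPM to 11.0, 5.36 and 6.07 CPM (-1.03 ± 0.29, adjusted p = 0.0354) and C1qa from 22.4, 28.0 and 16.8 CPM to 15.7, 9.39 and 8.43 CPM (-0.94 ± 0.28, adjusted p = 0.0415). The TM libraries of each chain lay below all 3 controls, but the margins were small. Cx3cr1 fell most, from 1.64, 2.15 and 1.64 CPM to 0.550, 0.391 and 0.345 CPM (-1.99 ± 0.36, adjusted p = 0.00688). It had 14, 7 and 7 counts with TM, so here too it reached the count minimum only through the controls.

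Csf1r did not pass the test in Perk KO neurons, at 4.12, 3.43 and 3.40 CPM in controls and 3.18, 3.07 and 3.16 CPM with TM (-0.17 ± 0.21, adjusted p = 0.598). Tyrobp (-0.34 ± 0.30) and Aif1 (0.43 ± 0.45) did not pass either. P2ry12, a sensor of extracellular nucleotides, was at 0.281, 0.349 and 0.510 CPM in controls and 0.550, 1.06 and 0.740 CPM with TM, which did not pass (1.08 ± 0.46, adjusted p = 0.127). Med12l, the gene around P2ry12, had 321 to 625 counts per library in these groups, against 6 to 19 for P2ry12. The calls of the C1q chains were fragile: the number of members called was 1 without TM replicate 3, where only Cx3cr1 passed, 2 without any 1 of the control libraries, and 0 in the fit over all 24 libraries. Without TM replicate 3 the adjusted p was 0.128 for C1qa, 0.116 for C1qb and 0.0520 for C1qc. Without the control libraries in turn it was 0.0507 to 0.145 for C1qa and 0.0597 to 0.120 for C1qb.

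Perk KO against WT in control neurons asked whether the cultures differed before stress. Here 3 of 7 tested members were higher in Perk KO and 0 lower, with 21.4% of all genes called. C1qb was higher by a log2 difference of 1.01 ± 0.21 (adjusted p = 0.0153), C1qc by 1.15 ± 0.29 (0.0256) and Tyrobp by 1.15 ± 0.27 (0.0226), each with all Perk KO libraries above all WT libraries. Tyrobp, for example, was at 4.21, 6.40 and 3.46 CPM in Perk KO against 2.40, 1.97 and 2.07 CPM in WT. C1qa was also higher in each Perk KO library but missed the threshold (0.96 ± 0.35, adjusted p = 0.0791). Same-numbered libraries deviated together between the 2 genotypes, and with the replicate number as a block C1qa passed as well (1.04 ± 0.18, adjusted p = 0.00591), which made 4 members, with 30.5% of all genes called. The 3 calls became 2 without Perk KO replicate 1, 0 without Perk KO replicate 2 or 3 and 1 without WT replicate 1, and 0 in the fit over all 24 libraries. Without Perk KO replicate 2 the adjusted p was 0.0665 for C1qb, 0.101 for C1qc and 0.0822 for Tyrobp, and without Perk KO replicate 3 it was 0.0508, 0.0538 and 0.0526. Without WT replicate 1 it was 0.0613 for C1qb and 0.0631 for Tyrobp, without WT replicate 2 it was 0.0627 for Tyrobp, and without Perk KO replicate 1 it was 0.0726 for C1qc.

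Other macrophage genes were higher in control Perk KO neurons too, where 21.4% of all genes were called. Of 18 tested general macrophage genes 8 were higher and 0 lower, led by Ptprc (log2 difference 3.34 ± 0.46, adjusted p = 0.00706), Lyz2 (0.98 ± 0.14, 0.00706), Cybb (1.70 ± 0.25, 0.00851), which encodes a subunit of the phagocyte NADPH oxidase, and the lysosomal Laptm5 (1.02 ± 0.19, 0.0125). Ptprc had 3, 5 and 8 counts in WT, so it reached the count minimum only through Perk KO. Of 8 tested genes of activated microglia 4 were higher, led by Spp1 (osteopontin, 2.26 ± 0.19) and the lectin gene Clec7a (2.55 ± 0.38). Fibroblast and mural markers moved with them, with 6 of 11 higher and 2 lower, and so did 5 of 11 astrocyte markers, with 0 lower. Their part in the members' difference was not tested. The cultures received different lentiviruses, so loss of Perk and any difference between the viruses cannot be told apart.

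After TM the genotypes differed more widely. In TM-treated neurons 5 of 6 tested members were higher in Perk KO and 0 lower, where 40.1% of all genes were called. The log2 differences were 2.85 ± 0.37 for C1qb (adjusted p = 0.00059), 2.13 ± 0.31 for C1qc (0.00105), 1.97 ± 0.40 for C1qa (0.00542), 2.15 ± 0.28 for Csf1r (0.000596) and 1.40 ± 0.41 for Tyrobp (0.0254), with no overlap of libraries for any of them. Aif1, at 2.83, 1.34 and 1.13 CPM in Perk KO against 0.951, 0.516 and 0.761 CPM in WT, missed the threshold (1.24 ± 0.46, adjusted p = 0.0631) and passed with the replicate block (1.16 ± 0.39, adjusted p = 0.0371). The block made 6 of 6 members higher, with 46.8% of all genes called. P2ry12, which was under the count minimum, had 14, 19 and 15 counts in Perk KO against 3, 2 and 0 in WT, and the authors' deposited table lists it as higher (log2 3.14, adjusted p = 0.00999). Other cell types' markers were also higher in Perk KO, with 12 of 12 astrocyte markers (median 2.10, beside 2.05 for the members), 7 of 11 fibroblast and mural markers (1.45) and 5 of 8 oligodendrocyte lineage markers against 1 lower (1.36), and their part was not tested. Trem2 was high in 1 library only, with 1.10 CPM (28 counts) in Perk KO TM replicate 1 and 0.0493 to 0.223 CPM in the other two. The call of Tyrobp ended without Perk KO TM replicate 1 (adjusted p = 0.0704) or 3 (0.0506) and without WT TM replicate 2 (0.0771) or 3 (0.0674). In the fit over all 24 libraries 3 members were called. As a share of the control mean, the summed level with TM was 23.9% in WT and 51.9% in Perk KO neurons.

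The difference in the summed level was not tested. For single members, the genotype by TM interaction tests whether the TM response differed between genotypes. In neurons it was called for 2 of 7 members, with 29.8% of all genes called. The response of C1qb differed by 1.76 ± 0.43 on the log2 scale (adjusted p = 0.00941) and that of Csf1r by 1.60 ± 0.38 (adjusted p = 0.00726), both with the weaker fall in Perk KO. C1qa (0.93 ± 0.60) and C1qc (0.91 ± 0.46) had positive values that did not pass, and the value of Cx3cr1 was 0.50 ± 0.63 (adjusted p = 0.579). Both calls held with every library left out in turn and ended in the fit over all 24 libraries, where the adjusted p was 0.250 for C1qb and 0.285 for Csf1r. Astrocyte markers showed the same sign, with 10 of 11 called and 0 in the other direction, as did 7 of 10 oligodendrocyte lineage markers against 1, so the sign was not particular to the members.

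**Figure D3:**
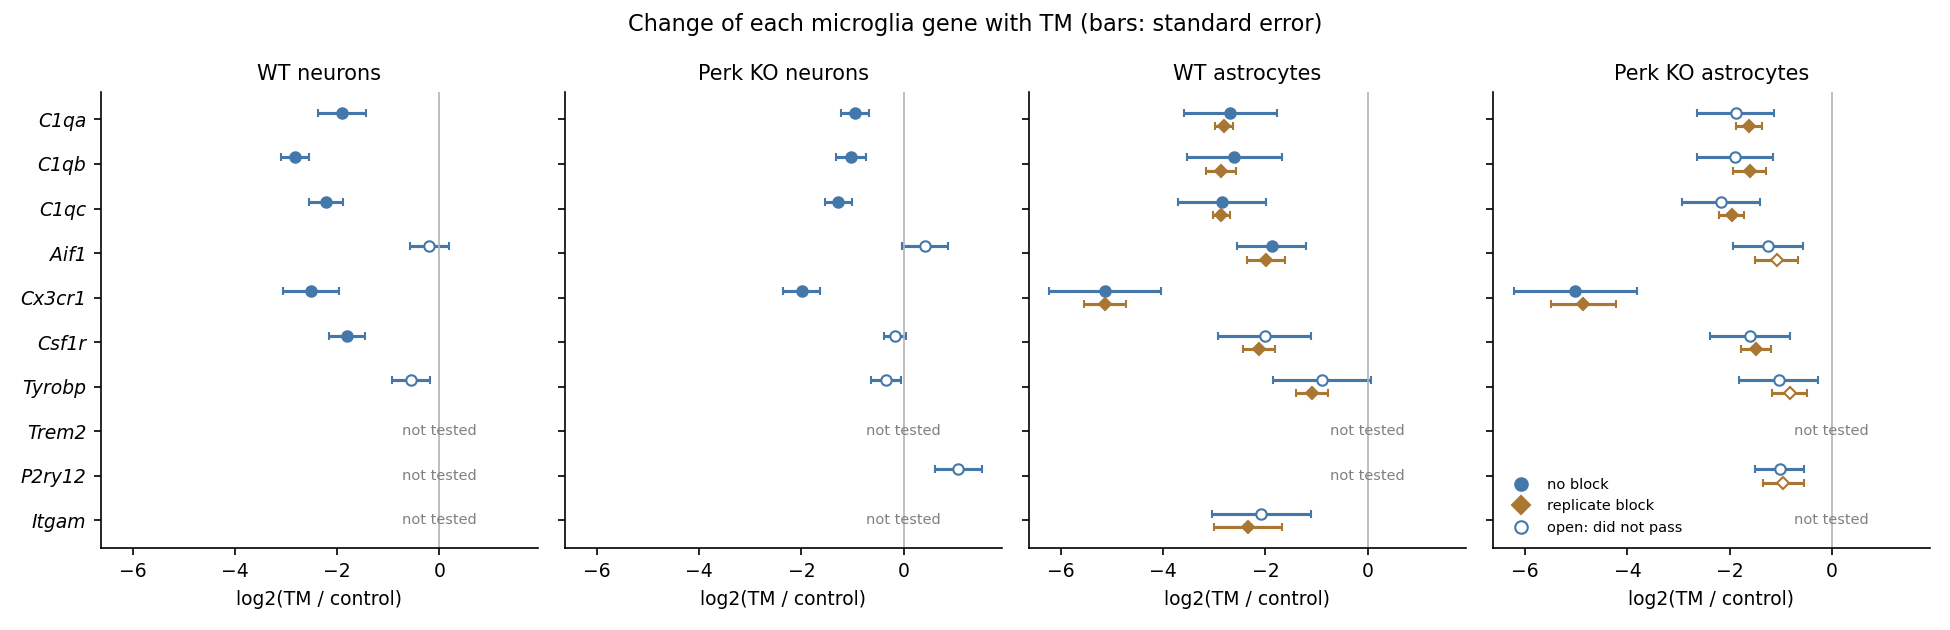
Log2 change with TM of each gene in the 4 kinds of culture, with bars giving the standard error, circles the fit without a block and, in astrocytes, diamonds the fit with the replicate block; filled symbols passed the adjusted p threshold of 0.05. Cx3cr1 fell in all 4 panels, where it reached the count minimum only through the controls. Csf1r fell in WT neurons by 1.81 but stayed near 0 in Perk KO neurons.

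In WT astrocytes 5 of 8 tested members fell with TM and 0 rose, with 52.7% of all genes called. Cx3cr1 nearly disappeared, from 13.6, 1.95 and 2.63 CPM to 0.398, 0 and 0.106 CPM, or 7, 0 and 2 counts (log2 change -5.14 ± 1.09, adjusted p = 0.00542). It reached the count minimum only through the controls. C1qc went from 31.9, 5.48 and 7.57 CPM to 4.61, 0.785 and 0.954 CPM (-2.85 ± 0.87, adjusted p = 0.0251). C1qa (-2.69 ± 0.91, 0.0368), C1qb (-2.61 ± 0.93, 0.0453) and Aif1 (-1.88 ± 0.67, 0.0459) also passed. Other cell types' markers fell as well, with 9 of 11 astrocyte markers (median -2.37, beside -2.35 for the members), 5 of 10 fibroblast and mural markers (-1.19) and 4 of 6 oligodendrocyte lineage markers (-1.13), and their part was not tested. The standard errors were wide, and the replicate 1 libraries were high in both arms. With the replicate block all 8 fell, with 65.7% of all genes called, and the errors shrank: C1qa -2.82 ± 0.18 (adjusted p = 5.39e-06), C1qb -2.87 ± 0.29, C1qc -2.86 ± 0.17 and Cx3cr1 -5.14 ± 0.41.

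The 3 further members called in WT astrocytes with the block were Csf1r (-2.12 ± 0.31, adjusted p = 0.000448), Itgam (-2.34 ± 0.66, 0.014) and Tyrobp (-1.09 ± 0.32, 0.0155). Itgam had 42, 15 and 15 counts in the controls and 14, 0 and 1 with TM, so it reached the count minimum only through the controls. Within each replicate number, the summed level with TM was 19.9, 12.5 and 11.7% of that in the control of the same number. Without a block, the number of calls was 8 without WT TM replicate 1, 3 without control replicate 3, and 1 without TM replicate 2, TM replicate 3 or control replicate 1, where only Cx3cr1 remained. In those 3 fits the adjusted p ran from 0.0986 to 0.137 for C1qa, 0.105 to 0.159 for C1qb, 0.0735 to 0.0865 for C1qc and 0.123 to 0.151 for Aif1. Without control replicate 3 it was 0.0612 for C1qb and 0.0671 for Aif1. The log2 change of Tyrobp turned to 0.28 without control replicate 1. With the block and any 1 replicate number left out, 7 members were called.

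In Perk KO astrocytes 1 of 8 tested members fell with TM, beside 10.1% of all genes called. This was Cx3cr1, from 9.26, 0.882 and 1.09 CPM to 0.106, 0 and 0.225 CPM (log2 change -5.02 ± 1.20, adjusted p = 0.03). With 6 counts in the 3 TM libraries, it reached the count minimum only through the controls. Its call ended without TM replicate 1 (0.0798), 2 (0.116) or 3 (0.0632), and without control replicate 1 it was not tested. With the replicate block 5 fell, with 28.3% of all genes called. These were Cx3cr1 (-4.86 ± 0.64, adjusted p = 5.73e-05), C1qc (-1.95 ± 0.25, 3.85e-05), C1qa (-1.61 ± 0.25, 0.000248), C1qb (-1.61 ± 0.32, 0.00184) and Csf1r (-1.49 ± 0.29, 0.00158). P2ry12 stood at 0.686, 0.556 and 0.620 CPM with TM against 2.14, 0.827 and 0.814 CPM in controls and did not pass (-1.02 ± 0.47, adjusted p = 0.238, and 0.102 with the block). The summed level with TM was 19.1, 56.4 and 47.9% of the same-numbered control, so the replicate 1 pair fell most. The block gave 3 calls without replicate number 1, and 6 without number 2 or 3.

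Between genotypes, control astrocytes showed 0 of 9 members called by edgeR and 0 by DESeq2, with 0 at an unadjusted p under 0.05 and 14.9% of all genes called. With the replicate block 4 were lower in Perk KO, with 37.7% of all genes called: C1qa by -0.48 ± 0.14 (adjusted p = 0.0261), C1qb by -0.72 ± 0.18 (0.0108), C1qc by -0.57 ± 0.15 (0.0136) and Cx3cr1 by -0.86 ± 0.22 (0.0122). In the same-numbered pairs the summed level in Perk KO was 82.9, 50.7 and 67.7% of WT. This direction was the opposite of that in control neurons. The blocked count was 4, 2 and 5 without replicate number 1, 2 and 3. Without a block and without WT replicate 1, the log2 difference turned to 0.75 for C1qa, 0.39 for C1qb, 0.72 for C1qc and 0.70 for Cx3cr1, and without Perk KO replicate 2 that of C1qa was 0.14.

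In TM-treated astrocytes 0 of 6 members were called between genotypes by edgeR and 0 by DESeq2, with 0 at an unadjusted p under 0.05, although 63.3% of all genes were called. With the block C1qa was higher in Perk KO (0.83 ± 0.32, adjusted p = 0.0456), beside 68.7% of all genes. The same-numbered pairs gave summed levels of 79.7, 230, and 276% of WT, so replicate number 1 went the other way. The blocked count was 2 without number 1 and 0 without number 2 or 3. Without WT TM replicate 1 and without a block, 3 members were called and C1qa stood at 2.02 (adjusted p = 0.0059), while without Perk KO TM replicate 1 it stood at -0.092.

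The genotype by TM interaction in astrocytes had 0 of 9 members called by edgeR and 0 by DESeq2, with 0 at an unadjusted p under 0.05 and 34.4% of all genes called. With the block C1qa (1.23 ± 0.40, adjusted p = 0.0217) and C1qc (0.91 ± 0.34, adjusted p = 0.04) passed, beside 49.3% of all genes, with the smaller fall in Perk KO. The blocked count was 3 without replicate number 1 and 0 without number 2 or 3. Without a block and without WT control replicate 1 the values turned to -0.29 and -0.53. Cx3cr1 had a blocked value of 0.34 ± 1.14, so its fall was not shown to differ between genotypes.

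Astrocyte and neuron cultures were compared in controls. In WT 3 of 8 members were higher in astrocyte cultures, beside 71.1% of all genes called in either direction: Itgam by 2.13 ± 0.61 (adjusted p = 0.0119), Cx3cr1 by 2.39 ± 0.75 (0.0175) and Aif1 by 1.23 ± 0.46 (0.0376). Itgam had 42, 15 and 15 counts in astrocytes and 6, 7 and 1 in neurons. It reached the count minimum only through the astrocytes, and its counts are uncertain for the overlap given above. The C1q chains did not pass, with values of 0.70 to 1.14. Without astrocyte replicate 1 the count was 0, with adjusted p-values of 0.0505 for Cx3cr1 and 0.149 for Aif1, and Itgam not tested. It was 5 without astrocyte replicate 2. It was 1 without neuron replicate 1, where Aif1 (0.118) and Cx3cr1 (0.0619) missed the threshold, and 2 without neuron replicate 2 (Aif1 0.107) or 3 (Cx3cr1 0.0579). In Perk KO 1 of 8 was higher in astrocyte cultures, P2ry12 by 1.72 ± 0.53 (adjusted p = 0.0138), beside 69.3% of all genes. P2ry12 had 40, 15 and 15 counts in astrocytes and 6, 6 and 9 in neurons, so it too reached the count minimum only through the astrocytes. Its call ended without astrocyte replicate 1 (0.0712), where 5 other members were called, or neuron replicate 1 (0.0526). Whether the TM response differed between culture types was tested by the cell type by TM interaction, which called 0 of 7 members in WT (24.9% of all genes) and 0 of 8 in Perk KO (11.7%) by edgeR and by DESeq2, with 0 and 2 at an unadjusted p under 0.05.

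The members did not keep their proportions under TM. The ratio of a gene to the sum of the C1q chains was taken within each library and is given without a test. It removes a common change of macrophage RNA only for genes made by macrophages alone. A ratio also rises where only C1q falls or where other cells make part of a gene's RNA, and neither was tested. In WT neurons Aif1 was 2.49, 2.17 and 7.42% of the C1q counts in controls and 11.8, 10.4 and 20.5% with TM, and in Perk KO neurons 2.60, 2.47 and 1.96% against 7.68, 6.47 and 5.29%. Tyrobp was 7.46, 5.35 and 12.1% in WT controls and 25.0, 26.04 and 17.8% with TM, and in WT astrocytes 5.94, 5.82 and 5.30% against 21.5, 12.8 and 20.3%. All TM libraries were above all controls for both genes in these groups. This also held for Aif1 in Perk KO astrocytes and for Tyrobp in both Perk KO cultures, narrowly so in astrocytes (9.43 against 9.36%). Aif1 overlapped in WT astrocytes, at 3.17, 6.35 and 5.14% in controls against 6.25, 12.8 and 7.25% with TM. Csf1r overlapped in WT neurons, at 8.13, 9.99 and 10.2% against 7.24, 15.6 and 19.2%. There Cx3cr1 stood at 2.65, 4.49 and 5.08% against 1.32, 6.25 and 2.74%. Cx3cr1 went the other way in astrocytes, from 11.6, 9.52 and 7.56% to 1.90, 0 and 2.90% in WT and from 9.62, 9.36 and 4.58% to 0.599, 0 and 2.25% in Perk KO.

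General macrophage genes mostly had higher ratios to C1q with TM as well. Of 18 that reached the minimum mean count over the neuron libraries, 16 had a higher ratio with TM in both genotypes, with a median log2 change of 1.71 in WT and 1.04 in Perk KO. In astrocytes it was 14 of 18, with medians of 2.21 and 1.40, and 2 of the 18 had a lower ratio in both genotypes. Adgre1, which encodes the macrophage antigen F4/80 and was chosen after its values were seen, was 23.3, 42.3 and 39.5% of the C1q counts in control WT astrocytes and 213, 169 and 294% with TM. Its own level was 27.4, 8.68 and 13.7 CPM against 44.6, 3.99 and 10.8 CPM, and its log2 change was -0.13 with the block (adjusted p = 0.704). The Fc receptor gamma chain Fcer1g, chosen in the same way, changed by 0.10 with the block (adjusted p = 0.828). Beside these stand blocked changes of -2.82 to -2.87 for the C1q chains in the same libraries. Adgre1 and Fcer1g do not stand for their list, of which 12 of 20 genes fell and 0 rose with the block (median -0.78). In that fit 65.7% of all genes were called.

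**Figure D4:**
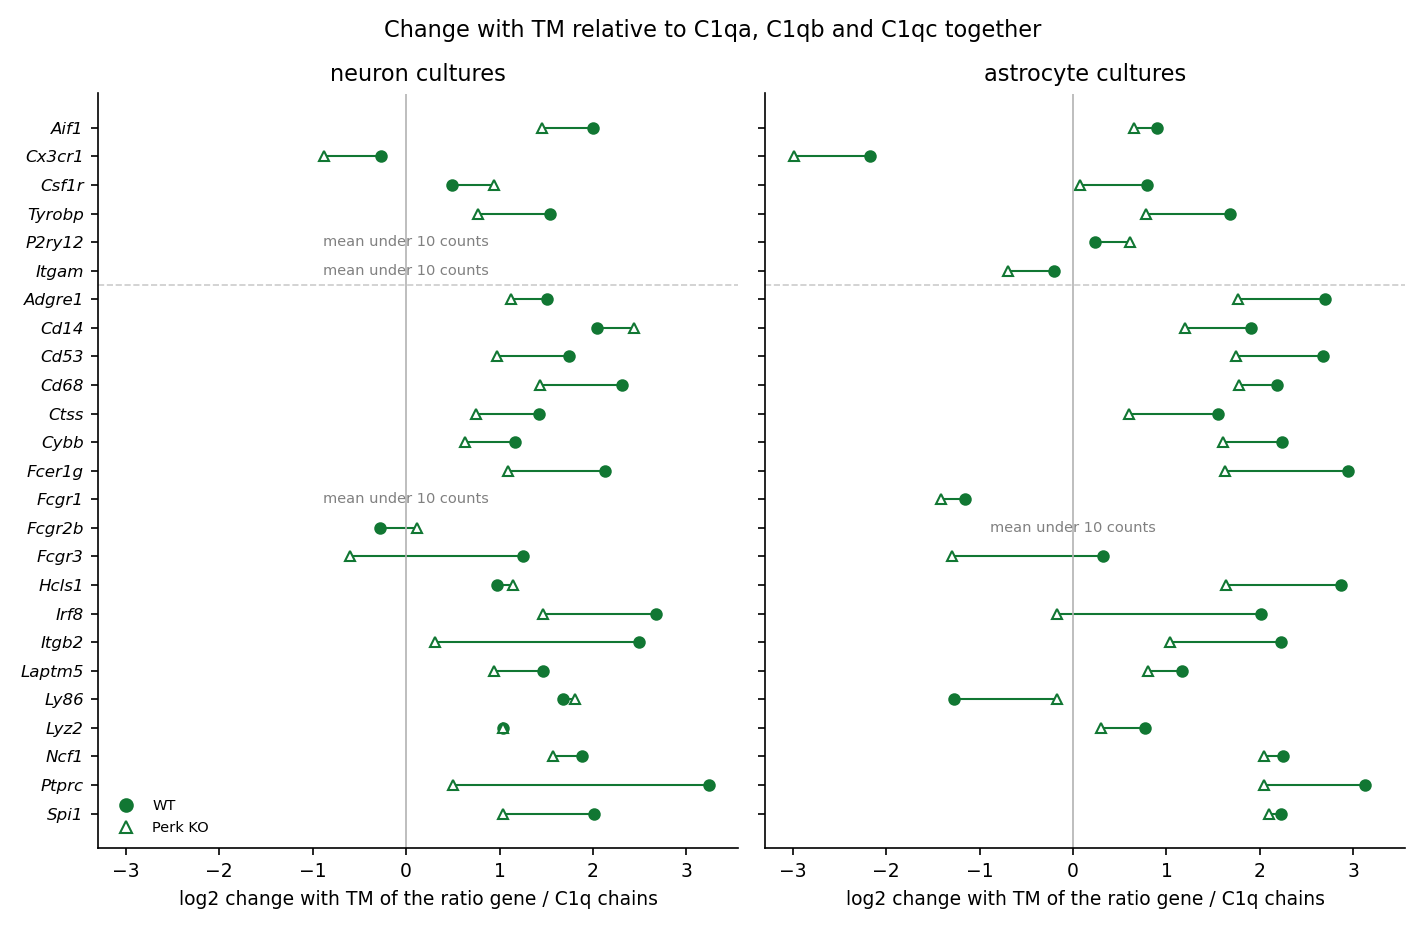
Log2 change with TM of the ratio between each gene's counts and the summed counts of C1qa, C1qb and C1qc, for members (above the dashed line) and general macrophage genes (below), with filled circles for WT and open triangles for Perk KO, each the difference between means of 3 libraries. Most genes lie right of 0, while Cx3cr1 lies at -2.18 and -2.98 in astrocytes.

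Counted by the test of change itself, 4 of 15 general macrophage genes fell with TM in WT neurons and 0 rose, with a median of -0.62, where 3852 of 15546 genes fell, so this share was near that of all genes. The 4 were Lyz2 (-1.10 ± 0.27), Cybb (-1.07 ± 0.31), Laptm5 (-0.78 ± 0.23) and the Fc receptor gene Fcgr3 (-1.06 ± 0.33). In Perk KO neurons 2 of 18 fell, Fcgr3 (-1.63 ± 0.42) and Itgb2 (-0.82 ± 0.25), the partner of Itgam in CD11b/CD18, and 1 rose, the LPS co-receptor gene Cd14 (1.30 ± 0.36). In WT astrocytes 3 of 20 fell without the block, the Fc receptor genes Fcgr1 (-4.32 ± 0.92), Fcgr2b (-3.40 ± 1.00) and Fcgr3 (-2.43 ± 0.76), and 12 with it. Fcgr1 (3, 0 and 1 counts with TM) and Fcgr2b (2, 1 and 2) reached the count minimum there only through the controls. Of all genes, 23.8% were called in Perk KO neurons, and 52.7% without and 65.7% with the block in WT astrocytes. In Perk KO astrocytes 5 of 17 fell with the block (median 0.05), where 28.3% of all genes were called, and the median without the block was -0.12. Stab1, a scavenger receptor of border macrophages, fell in all 4, by -4.77 ± 0.44 in WT neurons (adjusted p = 4.12e-05), -3.19 ± 0.24 in Perk KO neurons (0.00029), -3.78 ± 0.73 in WT astrocytes (0.00357) and -3.63 ± 0.98 in Perk KO astrocytes (0.0486). With TM it had 3, 2 and 4 counts in WT neurons, 12, 5 and 4 in WT astrocytes and 17, 5 and 4 in Perk KO astrocytes. In these cultures it reached the count minimum only through the controls.

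Among the tested genes of inflammatory activation more rose than fell with TM. In WT neurons 4 of 4 tested rose with TM, the costimulatory receptor gene Cd40 (3.52 ± 0.28), the chemokine gene Ccl3 (2.21 ± 0.47), and the pattern receptor genes Tlr4 (2.38 ± 0.58) and Tlr2 (0.84 ± 0.21). Cd40 (12, 9 and 7 counts in controls) and Tlr4 (8, 5 and 1) reached the count minimum only through the TM libraries. Il1b, of the same list, had 10, 12 and 15 counts in controls and 1, 1 and 1 with TM, and was not tested. In Perk KO neurons 2 of 7 rose, Tlr2 (3.68 ± 0.30) and Tnf (2.78 ± 0.56). Tnf had 6, 3 and 2 counts in controls and 47, 12 and 28 with TM, so it too passed the minimum only through TM. In WT astrocytes 5 of 8 rose and 1 fell: Nlrp3 (1.91 ± 0.30), Tnf (2.42 ± 0.68) and Cd40 (1.54 ± 0.38) were among those that rose, and Tlr2 fell by -2.39 ± 0.22. In Perk KO astrocytes 3 of 8 rose, Tlr2 (1.71 ± 0.15), Ccl3 (3.74 ± 0.49) and Tlr4 (0.90 ± 0.22), so Tlr2 moved in opposite directions in the 2 astrocyte genotypes. Of all genes, 51.8% were called in WT neurons, 23.8% in Perk KO neurons, 52.7% in WT astrocytes and 10.1% in Perk KO astrocytes, in either direction. Astrocytes can express several of the inflammatory genes, so these are not read as macrophage signals alone. Among 8 tested genes of activated microglia, 2 rose and 4 fell with TM in neurons of each genotype. TM lowered Cd9 in WT neurons (-0.92 ± 0.10) and raised it in Perk KO neurons (1.16 ± 0.13), and it lowered the osteopontin gene Spp1 in both (-1.13 ± 0.26 and -0.89 ± 0.13). Cd9 stood at 27.4 to 158 CPM in neuron libraries, where C1qa reached at most 28.0 CPM. Which cells made the Cd9 RNA was not tested.

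The ligands of the members' receptors were measured in the same libraries, where bulk RNA does not show which cells made them. Csf1, a ligand of CSF1R, was at 1439, 2106 and 2176 CPM in control WT astrocytes and 86.5, 101 and 108 CPM in control WT neurons (log2 difference 4.24 ± 0.20, adjusted p = 1.58e-07). TM raised it in WT neurons (0.95 ± 0.11) and Perk KO neurons (0.78 ± 0.14) and did not pass in astrocytes of either genotype. Il34, the other ligand of CSF1R, fell with TM in WT neurons, from 12.97, 14.3 and 10.4 CPM to 4.70, 5.42 and 4.92 CPM (-1.17 ± 0.17, adjusted p = 0.000487), and in WT astrocytes (-2.38 ± 0.36, adjusted p = 0.00108). It did not pass in Perk KO neurons (-0.22 ± 0.19) or astrocytes (0.04 ± 0.25), and the interaction was 0.92 ± 0.25 in neurons (adjusted p = 0.0168) and 2.39 ± 0.46 in astrocytes (0.00183). Cx3cl1, the ligand of CX3CR1, fell with TM in WT neurons (-0.81 ± 0.09) and not in Perk KO neurons (0.05 ± 0.10), with an interaction of 0.83 ± 0.13 (adjusted p = 0.000568). Tgfb1, a factor that keeps microglia in the resting state, rose with TM in WT astrocytes (0.84 ± 0.30, adjusted p = 0.0453).

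The proteases that act with C1q were higher in astrocyte cultures. C1ra was at 102, 81.2 and 66.7 CPM in control WT astrocytes and 4.70, 5.32 and 6.28 CPM in control WT neurons (log2 difference 3.90 ± 0.20), and C1s1 differed by 3.34 ± 0.34. Like the C1q chains, both fell with TM in WT astrocytes (C1ra -2.62 ± 0.23, C1s1 -2.27 ± 0.43) and in WT neurons (-0.86 ± 0.27 and -0.64 ± 0.23). In Perk KO neurons they rose (1.11 ± 0.27 and 0.77 ± 0.16), while the C1q chains fell. In Perk KO astrocytes C1ra (-0.12 ± 0.15) and C1s1 (0.00 ± 0.22) did not pass. The complement component C3, on which the pathway converges, fell in WT astrocytes (-1.09 ± 0.39, adjusted p = 0.048) and rose in Perk KO neurons (1.83 ± 0.25, adjusted p = 0.0021). Over 15 tested ligand and partner genes, 2 rose and 7 fell in WT neurons, 8 rose and 0 fell in Perk KO neurons, 1 rose and 11 fell in WT astrocytes, and 1 rose and 3 fell in Perk KO astrocytes. In the same order, 51.8, 23.8, 52.7 and 10.1% of all genes were called in either direction, so the count in WT neurons was near that of all genes.

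The genes whose pattern was most like the members' were ranked by the smaller of 2 Pearson correlations with the members' mean profile, over the 12 neuron and the 12 astrocyte libraries, as a description without a test. Libraries within each set share treatment and genotype groups and, in astrocytes, the high replicate 1. Of 12907 genes ranked, the first 8 were Gpnmb (0.98), Myo1f (0.94), Ctss (0.94), Lyz2 (0.93), Laptm5 (0.92), Ucp2 (0.90), Adam8 (0.89) and Cyth4 (0.88). Of these, Ctss (cathepsin S), Lyz2 and Laptm5 are on the list of general macrophage genes, and Gpnmb on that of activated microglia.

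The authors' deposited tables, read at an adjusted p under 0.05, gave similar member counts, but not always for the same genes. In neurons they list 5 lower with TM in WT, 4 lower with TM in Perk KO, 4 higher in control Perk KO and 6 higher in TM-treated Perk KO. In astrocytes the authors' deposited tables list 5 lower with TM in WT, 1 lower with TM in Perk KO, 0 between genotypes in controls and 1 higher in TM-treated Perk KO. With TM in WT astrocytes the authors' deposited table lists P2ry12 as lower (-3.42, adjusted p = 0.026) and not C1qb (adjusted p = 0.0749). The 1 gene higher in TM-treated Perk KO astrocytes in the authors' deposited table is P2ry12 (3.46, adjusted p = 0.0089). It had 13, 10 and 11 counts in Perk KO against 0, 1 and 2 in WT, which put it under the count minimum for edgeR. In control neurons the authors' deposited table also lists C1qa as higher in Perk KO (0.97, adjusted p = 0.0155), a call that edgeR made with the block.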

How the data were processed

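RNA from cultured mouse neurons and astrocytes was sequenced in 8 groups of 3 libraries. Per the submitters' processing notes, the tools were fastp, HISAT2, featureCounts and DESeq2 and the build GRCm38.p6; versions and the annotation release are not given in the sources used here. As deposited by the authors, there are 8 tables, 1 per pair of groups, with raw counts per gene, per the file headers. These deposited tables further list log2 fold changes and p-values of the authors' own comparisons, and gene lengths, used here for levels per kilobase. Where libraries occur in more than 1 table, 0 counts differed. Totals were 16 to 25.9 M counts per library, and 0 entries named no gene.

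The main test was edgeR 4.0.16 (R 4.3.3; TMM, quasi-likelihood F test) on the libraries of each comparison, over genes averaging at least 10 counts, with Benjamini-Hochberg adjustment over all genes tested and a threshold of 0.05. The standard error is the log2 difference divided by the square root of F. Ratios to C1q had 0.5 counts added to both terms. The alternatives tried were leaving out the count minimum, size factors of DESeq2 in edgeR, DESeq2 1.42.0 itself, a replicate block, a correction for GC content in 20 bins, both of these, a single fit of all 24 libraries, and leaving out single libraries. Leaving out a whole replicate number was added after seeing the data. The procedure was tested on simulated data.

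Replicate numbers come from the titles, which name no shared culture. As a check of pairing, deviations from group means were correlated over genes. Same-numbered astrocyte libraries gave 0.26 to 0.60. Neurons gave 0.15 to 0.33 between genotypes without TM and 0.18 to 0.46 with TM, but -0.35 to 0.26 (WT) and -0.12 to 0.26 (Perk KO) between treatments, where numbers were not taken to pair libraries.

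The members, the gene lists and the tests were chosen with earlier results of these data known. Named genes are the 10 members, up to 4 genes of each other list with the smallest p in a comparison, Csf1, Il34, Cx3cl1, Tgfb1, Itgb2, C1ra, C1s1 and C3, and the 8 genes most like the members; others are named as chosen after their values were seen.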

Additional observations from a re-analysis of the deposited data

Results flagged for a closer look

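The TM response of 2 of 7 tested members differed between WT and Perk KO neurons by the interaction test (edgeR, adjusted over all genes tested). Of all genes 29.8% were called, so the members' share was near that of all genes. Csf1r differed by 1.60 on the log2 scale (adjusted p = 0.00726), with a fall of 1.81 in WT and a change of -0.17 in Perk KO neurons. C1qb differed by 1.76 (adjusted p = 0.00941), with changes of -2.83 and -1.03. In each case all 3 TM libraries lay below all 3 controls in both genotypes. Both interaction calls ended in the fit over all 24 libraries.

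In astrocytes the same test with the replicate number as a block gave 1.23 for C1qa (adjusted p = 0.0217) and 0.91 for C1qc (adjusted p = 0.04). These were 2 of 9 tested members, where 49.3% of all genes were called, so the members' share was below that of all genes. Blocked changes with TM were -2.82 in WT and -1.61 in Perk KO astrocytes for C1qa, and -2.86 and -1.95 for C1qc. Neither passed without the block, and neither interaction count held without replicate number 2 or 3.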

How the results depend on the processing

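The 45 member differences followed here are those called within a cell type, with or without the block, or called between culture types; they kept their sign under every alternative that used all libraries. Others, none of them called, turned with the block: between genotypes in TM-treated astrocytes Tyrobp (-0.23 to 0.14), in the astrocyte interaction Tyrobp (-0.17 to 0.27) and Itgam (-0.22 to 0.09), and between culture types in Perk KO Aif1 (0.21 to -0.03) and Csf1r (0.17 to -0.25). Calls depended more on the setting. In 1 fit over all 24 libraries, the members called in neurons were 0 (TM in Perk KO), 0 (genotypes, control), 3 (genotypes, TM) and 0 (interaction). Without a count minimum they were 8 (genotypes, TM-treated neurons), 4 (TM in Perk KO astrocytes), 1 (genotypes, TM-treated astrocytes), and 6 and 4 (astrocyte against neuron cultures, WT and Perk KO). The GC correction gave 3 (TM in WT astrocytes) and 1 (cell type by TM, Perk KO).

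With the replicate block, astrocyte counts were 8 (TM in WT), 5 (TM in Perk KO), 4 (genotypes, control), 1 (genotypes, TM) and 2 (interaction), and with the GC correction and the block 8, 5, 4, 0 and 1. For astrocyte against neuron cultures in Perk KO the block gave 2, and for cell type by TM it gave 2 (WT) and 1 (Perk KO), or 2 and 2 with the GC correction, although numbers do not pair these cultures. Within neurons the block changed no call of a member other than C1qa (genotypes, control) and Aif1 (genotypes, TM). With the block and without replicate 1, 2 or 3, counts were 3, 6 and 6 (TM in Perk KO astrocytes), 4, 2 and 5 (genotypes, control), 2, 0 and 0 (genotypes, TM) and 3, 0 and 0 (interaction).

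With single libraries or replicate numbers left out, counts ranged from 1 to 4 (TM in Perk KO neurons), 0 to 4 (genotypes, control neurons), 1 to 8 (TM in WT astrocytes), 0 to 1 (TM in Perk KO astrocytes), 0 to 1 (genotypes, control astrocytes), 0 to 3 (genotypes, TM-treated astrocytes), 0 to 5 and 0 to 5 (astrocyte against neuron cultures), 0 to 1 (interaction in astrocytes) and 0 to 1 (cell type by TM, WT). Log2 differences that turned ranged from -2.67 to 0.28 for Tyrobp (TM in WT astrocytes). Between genotypes in control astrocytes they ranged from -1.69 to 0.75 (C1qa), -1.93 to 0.39 (C1qb), -1.88 to 0.72 (C1qc) and -2.63 to 0.70 (Cx3cr1). In TM-treated astrocytes C1qa ranged from -0.092 to 2.02, and in the interaction C1qa ranged from -0.29 to 2.33 and C1qc from -0.53 to 2.07. The cause was not tested. Leaving C1qa out, the sum without TM was 24.6 CPM for WT and 48.0 CPM for Perk KO neurons. Depth limits Trem2, P2ry12 and Itgam, with 0 to 42 counts per library.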
